A study of Mus musculus with 23 samples.

Results

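The 10 genes described here mark the endothelial cells that line the blood vessels of the mouse limb bud: Cdh5, Pecam1, Esam, Emcn, Kdr, Flt1, Tek, Tie1, Sox17 and Sox18. They were chosen by symbol as textbook markers of the vasculature, and all 10 were found among the 34682 genes of the table that sets Inv1DelCTCF against Inv1. RNA came from the distal forelimb of mouse embryos at E11.5, when the hand plate forms. Inv1 carries a CRISPR/Cas9-engineered inversion that brings an enhancer cluster of the Epha4 domain into a gene-dense region. Inv1DelCTCF, by its name, carries the same inversion and lacks a CTCF site, CTCF being a DNA-binding protein that helps to set the borders of chromatin domains. Both groups therefore share the inversion, with 3 libraries of Inv1 and 2 of Inv1DelCTCF, and no wild type library enters this comparison. The labels call the genotype of both groups mutant and give G4 ESC as the cell type of every library, although the tissue is a dissected forelimb. Whether a group rests on 1 clone or on pooled embryos is not given in the sources used here. The 4 tables that set wild type against Inv1, Inv2, Inv3 and Inv4 list 0 of the 10 genes, so their level relative to wild type was not analysed here. Sox17 is on chromosome 1, as is Epha4, and the other 9 genes are on chromosomes 2, 3, 4, 5, 8, 9 and 11 in the GENCODE annotation of GRCm38.

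Blood vessels grow into the limb bud early and form a capillary plexus that supplies the mesenchyme beneath the ectoderm. VEGF ligands, made largely by the surrounding tissue, act on the endothelial receptor kinases encoded by Kdr and Flt1. Angiopoietins act on the receptor kinase encoded by Tek, which its relative Tie1 modulates. Endothelial cells are held together by junction proteins such as VE-cadherin, and their identity is maintained by transcription factors that include ETS, SOX F and GATA proteins. These genes are transcribed mostly in endothelium, so in a bulk sample their level also depends on how much endothelium it holds.

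The values are the authors' comparison between groups, which gives a mean normalised count over 5 libraries, a log2 fold change, its standard error (SE) and a Wald test by DESeq2, without a value per library. The level in each group was rebuilt from the mean and the fold change. The depth per library is unknown, and the means of all genes sum to 3.02e+07 normalised counts. Log2 changes are written below as the change ± its SE, with a minus sign for a lower level in Inv1DelCTCF, the reverse of the deposited sign. That reading of the sign was checked, since the columns do not name a direction. It rests on 49 genes near the inversions that the fits share, for which the Inv1 levels rebuilt from each fit had a median absolute difference of 0.0124 on the log2 scale, against at least 0.107 with any other choice of signs. Single genes differed. Tuba4a was off by 0.130 and Dnpep by -0.0041, against -0.326 and -0.228 with only the sign of this comparison reversed. Ptprn, which enters only when the lower limit on the mean is 20, was off by more with the chosen sign (0.373 against -0.239). A gene was called when the adjusted p given by the authors was under 0.05. The tissue label was borne out by its markers, with a mean normalised count in the authors' deposited table of 25893 for Prrx1, a gene of limb mesenchyme, 19242 for the distal gene Hoxd13 and 7273 for the forelimb gene Tbx5.

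The 10 endothelial genes together made up 0.0319% of all normalised counts, and their summed rebuilt level was 10007 in Inv1 and 9052 in Inv1DelCTCF, a ratio of 0.905. Of the 10, the authors' deposited table gives 9 an adjusted p, and 1 of these was called, Cdh5, which fell. Over all genes, 11.7% of the 11218 with an adjusted p were called, 7.89% lower and 3.81% higher in Inv1DelCTCF, so 1 of 9 is close to the share among all genes. Among the 10 log2 changes 7 were negative and 3 positive, with a median of -0.12, beside a median of -0.014 and 53.1% negative over all genes with an adjusted p. Ratios of Inv1DelCTCF to Inv1 ran from 0.768 for Sox18 to 1.21 for Sox17, and the 95% intervals of all 10 lay within a change of 2-fold in either direction. In bulk tissue, fewer endothelial cells and less RNA per cell cannot be told apart.

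**Figure D1:**
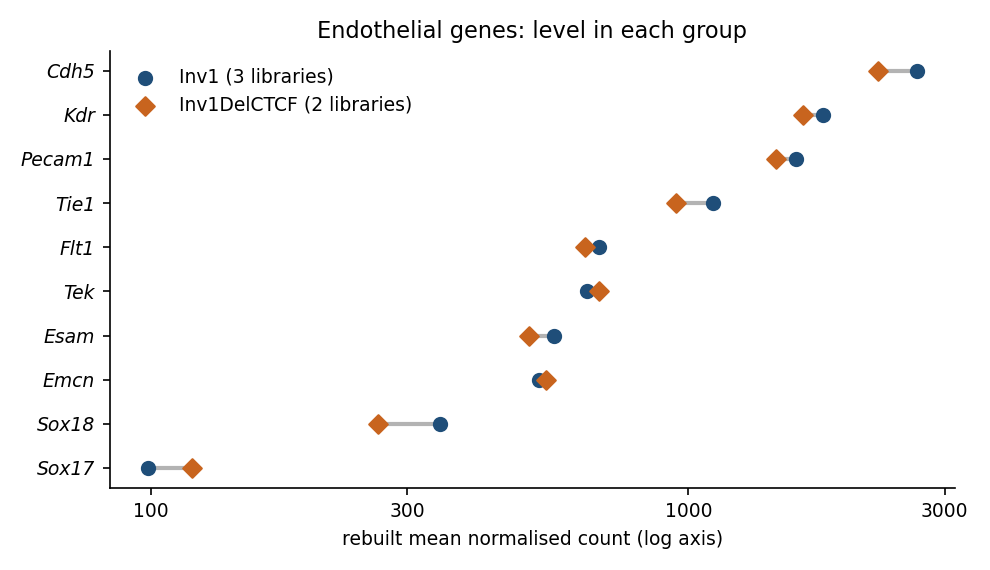
Level of the 10 endothelial genes in Inv1 (circles) and Inv1DelCTCF (diamonds), as the mean normalised count rebuilt for each group from the deposited mean and fold change, on a log axis. Grey lines join the groups of a gene, whose ratios run from 0.768 to 1.21, while the mean counts of the 10 genes span 23.3-fold from Sox17 to Cdh5.

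Cdh5 was the 1 called gene, and it belongs to the junction and surface genes. It encodes VE-cadherin, the adhesion molecule of endothelial junctions. Its rebuilt level was 2658 in Inv1 and 2251 in Inv1DelCTCF. For Cdh5 the authors' deposited table gives -0.24 ± 0.0786 log2 units (adjusted p = 0.0275 by DESeq2's Wald test). The ratio was 0.847 with a 95% interval of 0.761 to 0.942. This call did not hold when the p-values of all 21940 rows that have one were adjusted together (adjusted p = 0.0527). Nor did it hold when the trend with transcript GC content and length described below was subtracted (log2 change -0.17, adjusted p = 0.229), or when the Wald scores of all genes were divided by their robust SD of 1.76 (adjusted p = 0.980).

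Pecam1 encodes CD31, an adhesion molecule of endothelium that platelets and some leukocytes also carry. Its rebuilt level was 1587 in Inv1 and 1457 in Inv1DelCTCF, and the authors' deposited table gives -0.12 ± 0.106 log2 units (adjusted p = 0.482). Esam, an immunoglobulin-type adhesion molecule of endothelial junctions and platelets, stood at 562 and 505, a change given in the authors' deposited table as -0.15 ± 0.114 log2 units (adjusted p = 0.399). Neither gene passed the test, and both had the sign of Cdh5. Emcn encodes endomucin, a sialomucin of capillary and venous endothelium, and stood at 528 and 543. Its value in the authors' deposited table, 0.040 ± 0.122 log2 units (adjusted p = 0.875), became -0.063 after subtraction of the trend, so no direction can be given for it. As ratios, the 95% intervals of Pecam1 (0.795 to 1.06), Esam (0.769 to 1.05) and Emcn (0.871 to 1.21) all include 1, and those of Pecam1 and Esam also include the ratio of Cdh5.

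Platelet and megakaryocyte markers, whose cells carry Pecam1 and Esam too, had 0 called genes by DESeq2's test among the 3 of 7 with an adjusted p, with 0 at an unadjusted p under 0.05. Their summed rebuilt level was 739.8 in Inv1 and 753 in Inv1DelCTCF. The platelet chemokine gene Pf4 is at 0.053 ± 0.217 and Ppbp at 0.042 ± 0.294 log2 units in the authors' deposited table. Their part in the values of Pecam1 and Esam was not tested.

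Neither VEGF receptor was called. Kdr, the main signalling receptor for VEGF-A, had a rebuilt level of 1783 in Inv1 and 1634 in Inv1DelCTCF, and the authors' deposited table gives -0.13 ± 0.0920 log2 units (adjusted p = 0.394). Flt1, which binds VEGF-A tightly and limits its action on Kdr, stood at 683 and 643, with -0.087 ± 0.162 log2 units (adjusted p = 0.778) in the authors' deposited table. As ratios the 95% intervals were 0.809 to 1.04 for Kdr and 0.755 to 1.17 for Flt1, and both include 1. At nearly the same mean count (667 for Flt1 and 662 for Tek) Flt1 had the larger SE, against 0.124 for Tek in the authors' deposited table.

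The ligands and the other receptors of the VEGF family form a list of 8 genes, all with an adjusted p, of which the authors' deposited table calls 2 lower and 0 higher. Both were neuropilins, co-receptors that mesenchyme and nerves also express. Nrp2, with a mean of 17124, stands at -0.23 ± 0.0538 log2 units (adjusted p = 0.000875) and Nrp1 at -0.22 ± 0.0765 (adjusted p = 0.0434) in the authors' deposited table. Nrp1 kept its call after subtraction of the trend (log2 change -0.30, adjusted p = 0.00583) and Nrp2 did not (log2 change -0.17, adjusted p = 0.0524). The reverse held when all rows with a p-value or all genes with a mean of 10 or more were adjusted together, and with median centring, where Nrp2 was called and Nrp1 was not. For Vegfa, the main ligand, the authors' deposited table gives 0.14 ± 0.271 log2 units at a mean of 2960.2, which was not called. The median over the 8 genes was -0.21, beside -0.014 over all genes, and with the trend subtracted it was -0.077, beside 0.0073.

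The Tie receptors gave values of opposite sign. Tie1 had a rebuilt level of 1114 in Inv1 and 951 in Inv1DelCTCF, and the authors' deposited table gives -0.23 ± 0.0982 log2 units (unadjusted p = 0.0202, adjusted p = 0.109 by DESeq2's Wald test). Tek, which encodes the angiopoietin receptor TIE2, stood at 648 and 683, or 0.076 ± 0.124 log2 units (adjusted p = 0.739) in the authors' deposited table. Neither was called, and the difference between them was not tested, because both were read from the same libraries and their covariance is unknown. As ratios the unadjusted 95% intervals were 0.747 to 0.976 for Tie1 and 0.890 to 1.25 for Tek, and they overlap. Subtraction of the trend brought Tie1 to -0.070 (adjusted p = 0.784) and Tek to 0.067. The GC content of the Tie1 transcript was 57.6% and that of Tek 47.1%.

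The regions upstream of these related genes were read for their sequence. The 250 bases before the start site of each, from RefSeq on GRCm38.p6, are shown because Tek and Tie1 are the receptor pair whose changes had opposite signs. Neither change was called, and a link between sequence and change was not tested. Capitals mark every GGAA or TTCC, the core of sites for ETS factors on either strand. Tek lies on the plus strand at chr4:94739039-94739288 and Tie1 on the minus strand at chr4:118489850-118490099, each written 5′ to 3′ in the direction of transcription.
Tek: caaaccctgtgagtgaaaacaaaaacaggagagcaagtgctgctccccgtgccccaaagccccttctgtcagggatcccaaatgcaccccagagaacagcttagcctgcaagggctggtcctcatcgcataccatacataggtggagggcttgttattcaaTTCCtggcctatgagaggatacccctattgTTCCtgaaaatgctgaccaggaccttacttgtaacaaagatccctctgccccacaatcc
Tie1: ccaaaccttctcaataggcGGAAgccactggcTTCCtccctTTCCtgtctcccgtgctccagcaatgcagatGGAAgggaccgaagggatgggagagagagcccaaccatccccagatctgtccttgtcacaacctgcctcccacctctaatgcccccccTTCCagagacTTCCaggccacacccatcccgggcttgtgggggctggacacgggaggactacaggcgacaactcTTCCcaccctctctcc
The Tie1 window holds 7 GGAA cores and the Tek window 2, against a median of 3 over 32851 RefSeq promoter windows of the same length, of which 93.4% hold at least 1. Windows were also at hand for Emcn, Kdr and Flt1, and each of these holds 4. The SOX core ACAAT, read on both strands, occurs 2 times in the Tek window, 1 time in that of Emcn and in none of Kdr, Flt1 and Tie1, and 27.7% of all windows hold it. The TATA box letters TATAAA, read on both strands, were found in Flt1 alone of the 5, and in 12.4% of all windows. GC content was 51.2% in the Tek window and 60.4% in that of Tie1, with 2 and 6 CpG pairs, while Flt1 had 70.4% and 23 pairs, beside medians of 52.4% and 6 over all windows. These matches describe the sequence and are not measured binding.

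The list of angiopoietins and their signalling held no called gene by DESeq2's test. Of its 5 genes 3 had an adjusted p, with 0 at an unadjusted p under 0.05. Angpt1, the activating ligand of TIE2 made by perivascular and mesenchymal cells, is given by the authors' deposited table as 0.34 ± 0.200 log2 units (adjusted p = 0.271). Angpt2, a context-dependent antagonist released by endothelium, is at -0.034 ± 0.354 in the authors' deposited table, where its mean is 45.8 and its adjusted p is blank. Ptprb, the phosphatase that dampens TIE2 signalling, is at -0.099 ± 0.149 log2 units in the authors' deposited table.

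The SOX F factors, which act in arterial and lymphatic development, had the lowest mean counts and the largest SEs of the 10. Sox18 had a rebuilt level of 345 in Inv1 and 265 in Inv1DelCTCF, and the authors' deposited table gives -0.38 ± 0.190 log2 units (unadjusted p = 0.0442, adjusted p = 0.178 by DESeq2's Wald test). As a ratio this is 0.768 with a 95% interval of 0.593 to 0.993, the largest change in size among the 10 genes and not a called one. Sox17 stood at 98.9 and 119, or 0.27 ± 0.261 log2 units (unadjusted p = 0.302 by DESeq2's Wald test) in the authors' deposited table, a ratio of 1.21 (0.845 to 1.72). It has no adjusted p, and its mean of 107 lies just under 113, the lowest mean with one. When the genes whose mean was 100 or more were adjusted together, its adjusted p was 0.540. Subtraction of the trend took Sox18 to -0.17 and Sox17 to 0.34. Sox7, the remaining SOX F gene, is at -0.32 ± 0.171 log2 units (adjusted p = 0.223) with a mean of 303 in the authors' deposited table.

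**Figure D2:**
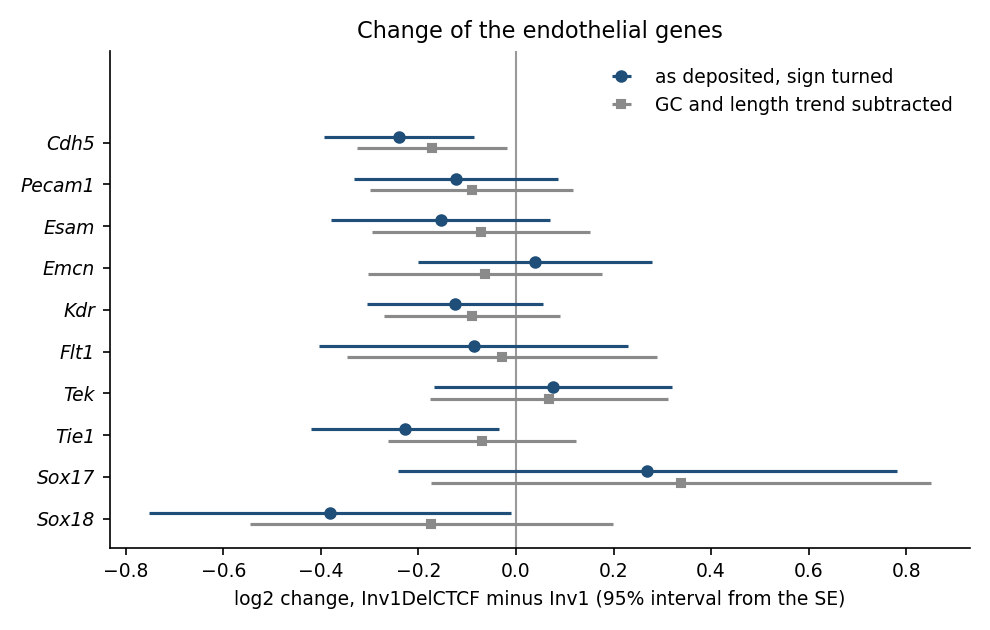
Log2 change of each endothelial gene in Inv1DelCTCF relative to Inv1, as deposited but with the opposite sign (circles) and after subtraction of the trend with GC content and transcript length (squares), with 95% intervals from the SE. As deposited, the intervals of Cdh5, Tie1 and Sox18 exclude 0 before adjustment, and after the subtraction only that of Cdh5 does.

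Before adjustment, 3 of the 10 genes (Cdh5, Tie1 and Sox18) had a p under 0.05, beside 26.1% of all genes with an adjusted p. Set against each other per kilobase of the longest transcript, the mean levels began with 625 normalised counts per kb for Cdh5, 446 for Pecam1, 291 for Kdr and 289 for Esam. Tie1 followed at 248 per kb, Sox18 at 193, Emcn at 152, Tek at 142, Flt1 at 96.8 and Sox17 at 33.0. Cdh5 was highest and Sox17 lowest with the median transcript length of a gene as well. The order between them was not kept, since Esam then came after Cdh5 at 920.0 per kb and Flt1 stood above Emcn, Tie1, Sox18 and Tek at 327. No spread over samples can be put on this order without values per library.

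The SE values carry the spread between libraries. After removal of the counting part, the coefficient of variation (CV) between libraries implied by the SE was 5.63% for Cdh5, 6.56% for Kdr, 6.79% for Tie1, 7.54% for Esam and 7.67% for Pecam1. It was 8.22% for Emcn, 8.61% for Tek, 11.7% for Flt1, 13.2% for Sox18 and 17.3% for Sox17, beside a median of 6.75% over all genes with an adjusted p. DESeq2 draws the dispersion of a gene toward that of genes with a like count, so these are estimates of the fit and not spreads measured gene by gene. Flt1 stands above Tek, Esam and Emcn, the endothelial genes nearest to it in count.

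**Figure D3:**
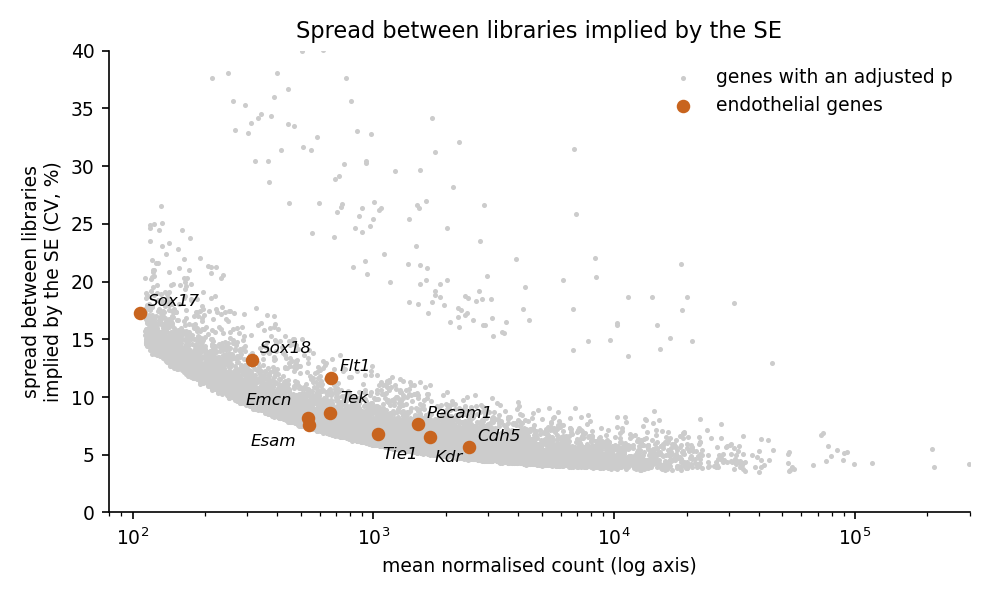
CV between libraries implied by the SE against the mean normalised count (log axis), for all genes with an adjusted p (grey, 37 of them above the top of the axis at 40%) and the 10 endothelial genes (orange). Most genes lie in a band that falls with the count, the endothelial genes lie in it, and Flt1 at 11.7% lies at its upper side.

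Over the whole table, log2 changes were lower the higher the GC content of a gene's longest transcript. Spearman's correlation between both was -0.518 over 10940 genes that share the same 5 libraries, given as a description. In bins of 2% GC the median log2 change ran from 0.18 at 35% to -0.32 at 65%. Genes called lower had a median GC content of 55.6%, those called higher 43.6%, and all genes tested 49.7%. The 10 endothelial transcripts spanned 40.7% (Emcn) to 60.9% (Sox18), with a median of 51.3%, and the trend fitted over all genes gave values between -0.21 and 0.10 log2 units for them. With that trend subtracted the median of the 10 was -0.071, 8 were negative, and 0 of the 9 genes tested were called by the Wald test with Benjamini-Hochberg adjustment, 1 of them having an unadjusted p under 0.05. Over all genes 3.66% were then called, 220 higher and 180 lower, where 427 and 885 had been called before. Whether the trend is technical was not tested.

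**Figure D4:**
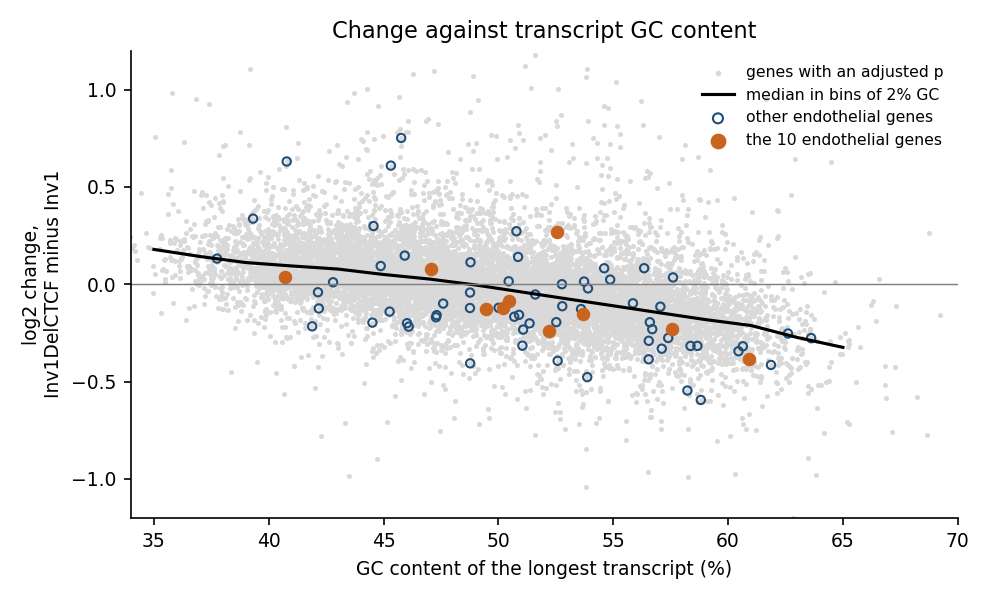
Log2 change in Inv1DelCTCF relative to Inv1 against the GC content of the longest transcript, for all genes with an adjusted p (grey, 18 outside the axes), 62 other endothelial genes (open circles) and the 10 endothelial genes (orange, Sox17 included although it has no adjusted p). The 62 include genes of ligands made by surrounding cells and of co-receptors that other cells also express. The black line is the median in bins of 2% GC with at least 20 genes, and it falls from 0.18 to -0.32.

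A wider set of 74 other genes of endothelium or its signalling was read in the same way. It includes the genes of VEGF ligands and Angpt1, made largely by surrounding cells, and genes such as Nrp2 that mesenchyme and nerves also express. Its counts therefore do not describe endothelium alone. Of the 74 genes 62 had an adjusted p, and the authors' deposited table calls 10 lower and 1 higher. That is 17.7% of the 62 beside 11.7% of all genes. Their median log2 change was -0.13, with 43 negative and 19 positive. After subtraction of the trend 2 were called, both lower, which is 3.23% beside 3.66% of all genes, and the median was -0.087. Those 2 were Nrp1 and Fli1, an ETS factor of endothelial and blood cells. Fli1 stood at -0.25 after the subtraction (adjusted p = 0.0272) and is not called at -0.20 ± 0.0742 log2 units (adjusted p = 0.0609) in the authors' deposited table.

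Among the surface and signalling genes of this set 23 had an adjusted p, of which the authors' deposited table calls 1 lower and 1 higher. Nos3, the endothelial nitric oxide synthase, fell by 0.55 log2 units (SE 0.196, adjusted p = 0.0478) and Jam2, a junctional adhesion molecule, rose by 0.75 (SE 0.249, adjusted p = 0.0289), both from the authors' deposited table. The rebuilt level of Jam2 was 104 in Inv1 and 174 in Inv1DelCTCF, and that of Nos3 was 258 and 177. Both lost their call after subtraction of the trend, with an adjusted p of 0.316 for Nos3 and 0.0758 for Jam2. The median over the 23 genes was -0.12. Of 11 transcription factor genes 1 fell, Lmo2, a LIM-domain partner of TAL1 and GATA factors, which the authors' deposited table puts at -0.48 ± 0.167 log2 units (adjusted p = 0.0406). It was not called after the subtraction (adjusted p = 0.185).

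The arterial and Notch list held 5 of the 11 called genes of the wider set. Of its 12 genes with an adjusted p the authors' deposited table calls 5 lower and 0 higher, where 7.89% of all genes were called lower. Their median was -0.27, or -0.14 with the trend subtracted. Hey1, a Notch target, is at -0.39 ± 0.109 (adjusted p = 0.00669), the netrin receptor gene Unc5b at -0.32 ± 0.0940 (adjusted p = 0.0132) and the Notch ligand gene Jag1 at -0.41 ± 0.123 log2 units (adjusted p = 0.0160) in the authors' deposited table. Notch1 and the arterial connexin gene Gja4 also fell, with -0.33 and -0.59 log2 units in the authors' deposited table. Jag1 and Notch1 are known from limb mesenchyme and ectoderm as well as from vessels. After subtraction of the trend 0 of the 12 were called by the Wald test, with adjusted p values of 0.0508 for Jag1, 0.0617 for Hey1, 0.229 for Gja4, 0.513 for Unc5b and 0.559 for Notch1. Ephb4, the venous ephrin receptor gene, was the 1 of 6 venous and lymphatic genes called, at -0.32 ± 0.0632 log2 units (adjusted p = 7.80e-05) in the authors' deposited table. It too lost its call after the subtraction (adjusted p = 0.201). The mean counts of Ephb4 and Unc5b were 8937 and 7348, beside 2495 for Cdh5. Which cells this RNA came from was not tested.

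Other cell types of the limb bud stood as follows beside these values. Of the pericyte and smooth muscle markers, cells that wrap vessels, 1 of 6 was called, Notch3 at -0.31 ± 0.0948 log2 units (adjusted p = 0.0155) in the authors' deposited table. Notch3 lost its call after subtraction of the trend (-0.10, adjusted p = 0.649). Of these 6 genes 3 were positive and 3 negative, with a median log2 change of 0.087. The summed rebuilt level of the list was 16384 in Inv1 and 15159.7 in Inv1DelCTCF. Notch3 made up 7678 and 6179 of these sums. Pdgfrb is at -0.11 ± 0.0613 and Cspg4 at 0.18 ± 0.126 in the authors' deposited table, and neither was called. Of the erythroid markers, whose cells travel inside the vessels, 2 of 7 were called and both fell. These were the embryonic globin genes Hba-x at -0.44 ± 0.102 (adjusted p = 0.000823) and Hbb-bh1 at -0.28 ± 0.0973 log2 units (adjusted p = 0.0360) in the authors' deposited table. Both kept their calls after subtraction of the trend (adjusted p = 0.0418 and 0.0312). Hbb-bh1 lost its call with median centring and when all rows with a p-value were adjusted together, and Hba-x kept its call in both. The erythroid sum was 89927 and 84488, and 3 of the 12 genes, Hba-a1, Hba-a2 and Hbb-b1, are listed at 0. These 0 values were not read as absence, and the sum may therefore be incomplete. Of the 5 macrophage markers with an adjusted p, 0 were called by DESeq2's test, with 1 at an unadjusted p under 0.05. All 5 were positive, with a median of 0.24, and the whole list summed to 1627 and 1933. Tyrobp, with a mean of 51.3, and Ptprc, with a mean of 92.7, have no adjusted p. The authors' deposited table puts them at 0.92 ± 0.347 and 0.58 ± 0.247 log2 units (unadjusted p = 0.00779 and 0.0187 by DESeq2's Wald test). Csf1r is at 0.42 ± 0.164 (adjusted p = 0.0708) and Cd68 at 0.064 ± 0.176 log2 units in the authors' deposited table, and Csf1r was called higher after subtraction of the trend (0.53, adjusted p = 0.0392). Adgre1 is listed at 0, and so is a second row under its older symbol Emr1, so this 0 was not read as absence.

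Of the surface ectoderm markers 4 of 11 fell, and their sum was 12872 in Inv1 and 10745 in Inv1DelCTCF. Krt5 is at -0.30 ± 0.0760 (adjusted p = 0.00231), Cdh1 at -0.39 ± 0.113 (adjusted p = 0.00952) and Krt18 at -0.56 ± 0.165 log2 units (adjusted p = 0.0117) in the authors' deposited table. After subtraction of the trend 0 of the 11 were called by the Wald test, and Krt14, at -0.12 log2 units in the authors' deposited table, was called in neither case. Of the limb mesenchyme markers 2 of 11 fell, Lhx2 at -0.41 ± 0.110 (adjusted p = 0.00587) and Hoxa13 at -0.30 ± 0.102 log2 units (adjusted p = 0.0330) in the authors' deposited table. Neither kept its call after subtraction of the trend (adjusted p = 0.241 for Lhx2 and 0.208 for Hoxa13). Their list summed to 95072 and 96382. Prrx1 at 0.035 ± 0.0533 and Prrx2 at -0.23 ± 0.0885 were not called in the authors' deposited table. The muscle and cartilage precursor lists held 0 called genes by DESeq2's test among 6 and 7 with an adjusted p, with 0 and 2 at an unadjusted p under 0.05. Their defining genes stand in the authors' deposited table at -0.079 ± 0.225 for Pax3 and 0.54 ± 0.479 for Pax7, and -0.047 ± 0.0981 for Sox9 and 0.12 ± 0.104 for Sox5. Of the muscle genes with an adjusted p 4 of 6 were positive, with a median of 0.12 and with Myog at 0.56 ± 0.391 in the authors' deposited table. Of the cartilage genes 5 of 7 were positive, with a median of 0.24. The cartilage matrix genes Acan, at 1.56 ± 0.683 (unadjusted p = 0.0219, adjusted p = 0.115), and Col9a1, at 0.29 ± 0.120 log2 units (unadjusted p = 0.0149, adjusted p = 0.0907), were not called in the authors' deposited table. The summed levels were 4021 and 4747 for muscle and 36042 and 41352 for cartilage markers in Inv1 and Inv1DelCTCF. The part of any of these cell types in the endothelial values was not tested.

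Beside the endothelial genes, the same test called Ptprn and Tuba4a near the inversion, at -0.80 ± 0.196 (adjusted p = 0.00174) and -0.61 ± 0.106 log2 units (adjusted p = 2.60e-06) in the authors' deposited table. Their 95% intervals as ratios, 0.439 to 0.747 and 0.567 to 0.755, lie below that of Cdh5, 0.761 to 0.942. Dnpep, also near the inversion and called at -0.32 ± 0.0804 (adjusted p = 0.00222) by the authors' deposited table, has an interval of 0.717 to 0.892 that overlaps that of Cdh5. After subtraction of the trend Tuba4a and Ptprn kept their calls by the Wald test (adjusted p = 0.000103 and 0.0468). Dnpep did not (adjusted p = 0.0838).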

How the data were processed

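The members and gene lists were chosen with earlier results of these data known. The submitters' processing notes name the aligner STAR, DESeq2 and the build mm9, and no versions are given in the sources used here. In the tables the authors deposited, each gene has a mean normalised count (a signal pooled over the libraries of a fit), a log2 fold change with its SE, a Wald score, a p-value and an adjusted p-value. Benjamini-Hochberg adjustment of the 11218 p-values gives back the deposited adjusted ones. The labels do not say that libraries came from separate litters, so the spread behind the p-values may be technical.

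Group levels were rebuilt by splitting the deposited mean between 3 and 2 libraries at the deposited ratio. The implied CV is the square root of the squared SE on the natural log scale over the summed inverse library numbers, less the inverse mean. The 95% intervals are 1.96 SE on either side. Transcript GC content and length, from the longest GENCODE transcript, were found for 97.5% of tested and 97.3% of called genes. The trend in both, with terms up to the cube and their product, was fitted by weighted least squares. The code for the adjustment, the rebuilding of levels and the trend was run on made-up tables with known answers. Those tables were built with the same formulas, so the runs check the arithmetic only. Whether the Wald test and the form of the trend suit these libraries was not tested.

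The genes named were the 10 members, of each list up to 3 called genes by smallest adjusted p, the first 2 genes of other cell type lists, and Angpt1, Angpt2, Vegfa, Ptprn and Tuba4a. Fli1, Notch1, Gja4, Ptprb, Sox7, Hoxd13, Tbx5, Adgre1, Tyrobp, Ptprc, Hbb-b1, Myog, Acan, Col9a1, Dnpep and the genes of the closing section were named after their values were seen. Of the lists of other cell types, 1 is not reported here. Alternatives covered thresholds, the genes adjusted over, a minimum change, centring, the trend, rescaled scores and transcript length. The tools were Python 3.11.15 with matplotlib 3.10.9, SciPy 1.17.1, numpy 2.4.6 and pandas 2.3.3.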

Additional observations from a re-analysis of the deposited data

How the results depend on the processing

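Of the 10 endothelial genes 1 was called as deposited. None was called at an adjusted p under 0.01, over all rows with a p-value, with a change of at least 0.5, with the trend subtracted or with Wald scores rescaled (0 each, with 3, 3, 3, 1 and 0 at an unadjusted p under 0.05). The genes called in the wider set, 11 as deposited, numbered 3, 6, 3, 2 and 0 under these settings, 7 with a mean count of at least 10 and 7 with median centring. Of all genes, 1312 as deposited, 576 were called under 0.01, 174 with the minimum change, 400 with the trend subtracted and 12 with rescaled scores (7 higher, 5 lower). Emcn changed sign with the trend subtracted (-0.0629), because the trend fitted for it, 0.103, is larger than its change of 0.040 ± 0.122. The cause of the trend was not tested. The median of the 10 lay between -0.13 (weighted mean) and -0.07, and the sign check gave residuals of 0.0165 and 0.0199 with lower limits on the mean. No paired analysis was possible because the result comes from tables without values per library, and for the same reason no replicate could be left out. Sox17 and Sox18 had the lowest mean counts of the 10 (107 and 313), and their implied CVs of 17.3% and 13.2% are what remains once the counting part is removed.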

Other observations

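Genes induced by low oxygen had a larger implied spread between libraries than most genes. Vegfa is such a gene but is not on the list of 12 counted here. Of the 12 genes on the list 10 had an adjusted p, and 0 were called by DESeq2's test, with 0 at an unadjusted p under 0.05 as well. Their sum of rebuilt levels was 73839 in Inv1 and 60671 in Inv1DelCTCF. The CV implied by the SE had a median of 17.9% over these 10 genes, against 6.75% over all genes, and 9 of the 10 lay above that. A spread above that of all genes is not particular to this list. Of the 62 other endothelial genes 53 lay above 6.75%, with a median of 9.97%. The platelet and muscle precursor lists had medians of 16.2% and 14.2%, and the limb mesenchyme list one of 6.45%. Ldha, a glycolytic enzyme gene with a mean of 31485, is at -0.32 ± 0.239 log2 units (change ± SE) in the authors' deposited table and had an implied CV of 18.2%. Pgk1, with a mean of 20979, had an implied CV of 14.8%, and Slc2a1, a glucose transporter gene, one of 17.7%. Vegfa itself had an implied CV of 20.5%, while the ligand gene Vegfb had one of 7.81% and the receptor gene Kdr one of 6.56%. The ratio of Vegfa between the groups therefore has a 95% interval of 0.763 to 1.59 despite its high count.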
